A study of Mus musculus with 29 samples.

Results

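Cr1l and 8 other complement genes were followed in mouse keratinocytes that carry an inducible c-Fos transgene, with and without doxycycline: the membrane regulators Cr1l, Cd55 and Cd59a, the soluble regulators Serping1 and Clu, and the cascade components C3, Cfb, C1s and C1ra. The genes were chosen by name, and their probes were those with that symbol in the probe annotation that 2 or more of the 29 arrays detected (p below 0.01). Of the 9 genes, 7 had a probe under that symbol, with 8 probes in all, and 5 probes of 4 genes were detected often enough: 2 for Cr1l and 1 each for Cd55, Cd59a and Clu. They stand among 11794 such probes of 8271 genes. Clu, detected on 14 arrays, was the least often detected member to meet the rule, and Serping1, detected on 1, was the nearest that did not. The difference of Cr1l between treatments at 24 h was known when the genes were chosen, so that contrast, and each other comparison of Cr1l that uses the 24 h arrays, is given as a description with no test.

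The cells were primary keratinocytes of tail skin from C57BL/6 mice, kept at 32 °C in serum-free medium, and all 10 groups carried the c-FostetON transgene. One treatment received doxycycline (Dox), the inducer of tet-ON transgenes, and the other was left untreated, each sampled at 6, 12, 24, 48 and 72 h. In time order there were 3, 3, 3, 2 and 4 Dox arrays and 2, 2, 3, 3 and 4 untreated ones; the last group of each treatment has 2 arrays with the letter C, which were averaged, so that 27 replicates remained. No group here lacks the transgene, so doxycycline and c-Fos cannot be told apart, and the promoter that drives the transgene and whether the replicates came from separate mice or cultures are not given in the sources used here.

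Complement is a cascade of serum proteins in which C3 convertases on a surface cleave C3 and lead to a pore, the membrane attack complex. Cells that the cascade must spare carry regulators: in rodents Cr1l (Crry) and Cd55 act on the convertases, and Cd59a blocks assembly of the pore. Keratinocytes are known to make regulators and several components, and c-Fos is a subunit of the transcription factor AP-1.

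Values are normalized log2 intensities; the median raw signal of an array lay between 54.5 and 74.5, and each array detected 33.4 to 37.8% of its 25697 probes. Of 12 keratinocyte markers with a probe 11 were detected, against 3 of 12 for fibroblasts and 3 of 13 for macrophages and Langerhans cells. For melanocytes 4 of 6 markers with a probe were detected (Dct, Mlana, Pmel and Tyrp1). For endothelium it was 1 of 6, and for Schwann cells and muscle 1 of 3. Col1a1, Col1a2, Col3a1, Pdgfra, Ptprc and Pecam1 were among those below the rule. The single Fos probe was lower with Dox at 24, 48 and 72 h, with log2 differences of -0.76, -0.83 and -0.78 (adjusted p = 0.00547, 0.00551 and 0.00166), and leaves the expression of the transgene unknown. The untreated 6 h arrays stood apart in the difference between 2 Actb probes, at 3.95 to 4.59 on the log2 scale against -4.03 to -3.44 with Dox. The arrays fell into 4 sets by the distribution of the authors' values, and the 12 h and 24 h comparisons crossed sets. With Dox, 12.5% of the 11794 probes were called higher at the 6 h time point, and 1.2%, 1.26%, 1.28% and 2.7% at the 4 later ones in turn, at an adjusted p below 0.05.

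Cr1l was higher with Dox at every time at which it was tested, on both of its probes, which held for no other of the 4 detected complement genes. At 6 h the probes read 3.78-fold and 2.74-fold higher, at 48 h 2.32-fold and 2.77-fold, and at 72 h 2.16-fold on each. The 12 h calls did not hold in every alternative run, and neither did the 6 h call of Cr1l probe 2. Cd55 passed the test with Dox at no time, while Cd59a passed at 12 h and Clu at 72 h. Cr1l lies on chromosome 1 between Cd46 and Cr2, both also complement regulators or receptors, and neither neighbour was detected on any array.

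The 250 bases before the start of Cr1l are shown beside those of Cd55, a regulator of the same convertases on the same chromosome that showed no call with Dox. Both are from RefSeq on GRCm38.p6, minus strand, 5′ to 3′, with GC box matches (GGGCGG on either strand) in capitals.
Cr1l, chr1:195131571-195131820: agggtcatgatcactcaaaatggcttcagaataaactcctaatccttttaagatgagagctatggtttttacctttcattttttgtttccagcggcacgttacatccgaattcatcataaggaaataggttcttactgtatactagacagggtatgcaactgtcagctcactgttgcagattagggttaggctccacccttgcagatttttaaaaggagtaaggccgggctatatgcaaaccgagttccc
Cd55, chr1:130462745-130462994: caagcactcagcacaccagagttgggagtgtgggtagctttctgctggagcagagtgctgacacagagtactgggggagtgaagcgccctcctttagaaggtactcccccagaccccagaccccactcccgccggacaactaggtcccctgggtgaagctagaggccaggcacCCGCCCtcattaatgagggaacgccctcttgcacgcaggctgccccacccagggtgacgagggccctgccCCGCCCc
The Cr1l window is 41.6% G and C and holds no GC box, whereas the Cd55 window is 64.0% G and C and holds 2, at -77 to -72 and at -7 to -2 from the start. The windows of Cd59a, C1ra and C3 (44.8, 49.6 and 52.0% G and C) also hold no GC box. None of the 5 windows holds the AP-1 letters TGANTCA or the CRE letters TGACGTCA on either strand. Over 32851 promoter windows of this length, 6.75% hold the AP-1 letters, 1.55% the CRE letters and 32.7% a GC box. These matches are letters in a short window and not measured sites.

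Cr1l probe 1 (ILMN_2688631) read 5.71 and 5.48 in the untreated replicates at 6 h and 7.43, 7.63 and 7.49 with Dox. At 12 h the untreated replicates read 6.72 and 7.18, and those with Dox 7.88, 7.96 and 7.95. In both comparisons every Dox replicate lay above every untreated one, as did 21.1% and 13.6% of all probes at these times. The difference at 6 h was 1.92 on the log2 scale (SE 0.16, 3 against 2 replicates, adjusted p = 3.29e-09), and at 12 h it was 0.98 (SE 0.16, adjusted p = 0.00367). At 24 h the untreated replicates read 6.79, 7.24 and 7.19 and the Dox replicates 8.32, 7.84 and 8.27, again without overlap, a difference of 1.07 that is given without a test. At 24 h 9.07% of all probes had every Dox replicate above every untreated one.

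At 48 h Cr1l probe 1 read 7.22, 6.83 and 6.92 in untreated replicates and 8.17 and 8.24 with Dox. At 72 h it read 7.0, 6.88 and 6.78 untreated and 8.04, 8.14 and 7.80 with Dox. The groups did not overlap at either time, which was so for 13% of all probes at 48 h and 12.3% at 72 h. The differences were 1.22 at 48 h (SE 0.16, 2 against 3 replicates, adjusted p = 2.31e-05) and 1.11 at 72 h (SE 0.14, 3 against 3, adjusted p = 7.23e-06).

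Cr1l probe 2 (ILMN_1234997) gave the same separation in each comparison. At 6 h it read 5.09 and 4.85 untreated and 6.20, 6.46 and 6.60 with Dox, and at 12 h 5.55 and 6.12 untreated and 6.53, 6.74 and 6.59 with Dox. At 24 h the untreated replicates read 6.32, 6.19 and 5.90 and the Dox replicates 6.78, 6.93 and 6.81. All Dox replicates lay above all untreated ones at these 3 times, and the closest approach was at 12 h. At 48 h the probe read 5.96, 5.34 and 5.44 untreated and 7.24 and 6.86 with Dox, and at 72 h 5.80, 5.85 and 5.72 untreated and 7.02, 6.86 and 6.83 with Dox. The tested differences, from the earliest time to the latest, were 1.45, 0.79, 1.47 and 1.11 on the log2 scale (adjusted p = 7.04e-07, 0.0182, 4.71e-06 and 2.67e-05), and the difference at 24 h was 0.70, without a test. Over the 27 replicates the 2 probes followed each other with a Pearson r of 0.931 and a Spearman rho of 0.896, points that share the same arrays.

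**Figure D1:**
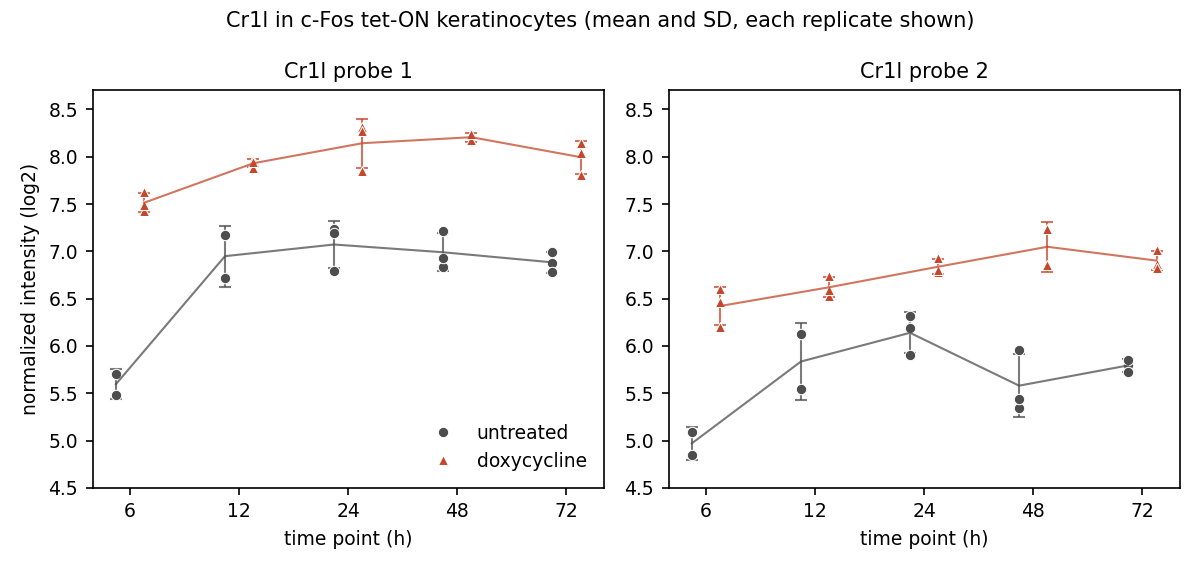
Normalized log2 intensity of both Cr1l probes (vertical axis) at each time point in hours (horizontal axis, evenly spaced), with a point per replicate and lines and bars for the group mean and SD. Dox replicates lie above the untreated replicates of the same time in every case, and the untreated 6 h group lies lowest, at a mean of 5.60 for probe 1 and 4.97 for probe 2.

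Averaged over 6, 12, 48 and 72 h, Cr1l was higher with Dox by 1.31 on the log2 scale on probe 1 (SE 0.08, adjusted p = 6.74e-12) and by 1.20 on probe 2 (SE 0.09, adjusted p = 1.26e-10), and 10% of all probes were called higher in this mean. Without the 6 h groups, the mean over 12, 48 and 72 h was 1.10 on probe 1 and 1.12 on probe 2 (adjusted p = 1.83e-09 and 6.90e-09), where 3.86% of all probes were called higher. Only 8 probes, 0.0678% of those tested, were called higher at all of 6, 12, 48 and 72 h, and both Cr1l probes were among them. This needs the 12 h call, which both Cr1l probes lost in some alternative runs, given below. Cr1l was also chosen with its difference at 24 h known. The other genes with a symbol there were Igfbp3, which codes for a binding protein of insulin-like growth factors, Wnt7b, a secreted Wnt ligand, Psg18, a pregnancy-specific glycoprotein, and Ripor3.

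The calls for Cr1l at 48 and 72 h held under each alternative and with each replicate left out, while those at 12 h did not. With the array set as a block, which leaves 3 Dox arrays against 1 untreated array at 12 h, the 12 h differences were 0.75 (adjusted p = 0.130) and 0.50 (adjusted p = 0.486) for probes 1 and 2. With the Actb probe difference as a covariate the 12 h calls were also lost (0.69 on each probe, adjusted p = 0.293 and 0.411), and probe 2 at 6 h was no longer called (1.23, adjusted p = 0.0749). In that fit 3 of all 11794 probes were called at 12 h and 265 at 6 h, against 189 and 2991 in the main fit. Replicates are numbered in the order in which values are given. Leaving out untreated 12 h replicate 1 leaves the same arrays to compare at 12 h as the block does. It gave the same differences of 0.75 and 0.50, without a call, and is no separate check. The 12 h call of probe 2 was also lost without Dox 12 h replicates 2 or 3 (adjusted p = 0.0790 and 0.0520). The authors' deposited values gave smaller differences, of 0.71, 0.77, 0.66 and 0.72 on probe 1 and 0.35, 0.42, 0.47 and 0.50 on probe 2 at 6, 12, 48 and 72 h, each still called (adjusted p from 0.000140 to 0.0392).

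**Figure D2:**
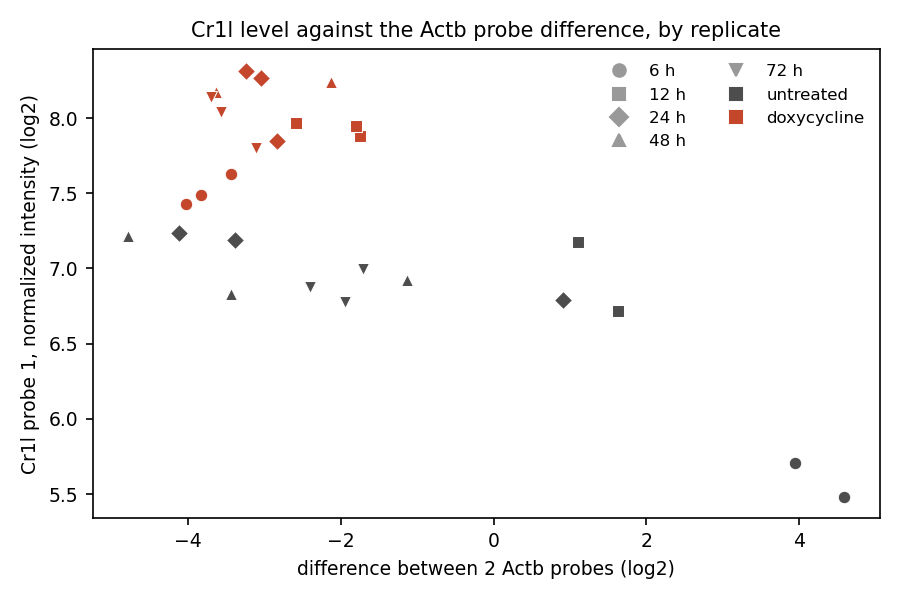
Cr1l probe 1 (vertical axis, normalized log2 intensity) against the log2 difference between 2 Actb probes (horizontal axis) for the 27 replicates, with colour for treatment and symbol for time. The untreated 6 h replicates lie alone at the lower right, and at 48 h, where untreated arrays span -4.78 to -1.14 and Dox arrays -3.63 to -2.12 on the horizontal axis, Dox replicates lie above untreated ones.

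The Actb probe difference was 1.10 to 1.63 untreated and -2.59 to -1.75 with Dox in the 12 h groups, -4.12 to 0.91 and -3.24 to -2.83 in the 24 h groups, and -2.41 to -1.71 and -3.71 to -3.09 in the 72 h groups. It thus moved with Dox at 6, 12 and 72 h and overlapped at 24 and 48 h. Keratinocyte markers were also counted. Of 15 detected marker probes 3 were called higher and 1 lower at 6 h, against 12.5% and 12.8% of all probes. In either direction this was near the 25.4% of all probes called at 6 h. None was called at 12 h, where 1.6% of all probes were, and 1 was called higher at 24 h, against 1.26%. At 72 h 7 were called higher and none lower, against 2.7% and 2.91%. At 72 h their summed intensity per array was 73241 to 76873 with Dox against 64314 to 68265 untreated. At 48 h it was 75387 to 82181 against 69808 to 70792, with 1 probe called higher, against 1.28% of all probes. The part of the markers in the Cr1l difference was not tested, and in bulk cultures fewer cells of a type and less RNA per cell cannot be told apart.

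The levels of Cr1l fell into an order that followed treatment first. For probe 1 the untreated 6 h group was lowest, the untreated 72, 12, 48 and 24 h groups followed with means from 6.88 to 7.07 and overlapping neighbours, and every Dox group came above them. The Dox 6 h group was next, at a mean of 7.51, and the Dox 12, 72, 24 and 48 h groups lay highest, from 7.93 to 8.21, with overlap between neighbours. The untreated 24 h and Dox 6 h groups, which are neighbours in this order, did not overlap for probe 1 but did for probe 2, where the highest untreated replicate read 6.32 and the lowest Dox replicate 6.20.

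Within untreated cultures, Cr1l was higher at 24 h than at 6 h by 1.48 on the log2 scale on probe 1 (SE 0.16) and by 1.17 on probe 2 (SE 0.18), and with Dox by 0.63 on probe 1 (SE 0.14) and 0.42 on probe 2 (SE 0.16). These values use the 24 h arrays and carry no test. The 2 times lie in different array sets. With the set as a block the differences in untreated cultures were 1.02 and 0.60, and that with Dox on probe 1 was 0.34. The block gauged the set of the 6 h arrays only by the 2 untreated 12 h replicates, 1 array in each of 2 sets. From 24 to 48 h untreated cultures differed by -0.08 on probe 1 and -0.56 on probe 2.

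The size of the Dox difference varied over 6, 12, 48 and 72 h on probe 1 (F test, adjusted p = 0.0158), as for 15.1% of all probes, and did not pass on probe 2 (adjusted p = 0.131). Over 12, 48 and 72 h alone the variation did not pass on either probe (adjusted p = 0.869 and 0.350).

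The 5 genes outside the complement group whose brightest probe followed Cr1l probe 1 most closely, of 8266 compared over the 27 replicates, were Igfbp3 (Pearson r 0.931), Ripor3 (0.896), Ap1s1, a subunit of a clathrin adaptor (0.873), Aebp2, a cofactor of the Polycomb complex (0.872), and Ntan1, an amidase of N-terminal asparagine (0.869). The points share arrays and split by treatment, so r was also taken within each treatment. Over untreated replicates alone r was 0.945 for Igfbp3, 0.760 for Ripor3 and 0.926 for Ap1s1, and over Dox replicates alone 0.162, 0.620 and 0.763. For Aebp2 and Ntan1 r was 0.944 and 0.927 over untreated replicates, and 0.349 and -0.04 over Dox replicates. On Cr1l probe 1 the untreated 6 h replicates read 5.48 and 5.71, against 6.72 to 7.24 in the other untreated replicates. The r over untreated replicates thus leans on them, and it was not taken without them. Over both treatments without them r was 0.862, 0.868, 0.776, 0.729 and 0.747 for the 5 genes in the order first named. Igfbp3 differed with Dox by 2.35, 0.98, 0.72 and 1.18 on the log2 scale at 6, 12, 48 and 72 h. It was picked here by its likeness to Cr1l on the same arrays, so these differences are a description with no test. The median r over all genes compared was -0.07.

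Cd55 (decay-accelerating factor, which dissociates C3 convertases) did not differ with Dox beyond the spread of replicates but rose with time in both treatments. Its probe was detected on 11 of 14 untreated arrays and 12 of 15 Dox arrays. At 6 h the untreated replicates read 4.92 and 4.90 and the Dox replicates 4.47, 4.91 and 5.12, and at 72 h they read 5.68, 5.96 and 5.69 and 5.65, 5.83 and 6.12. The treatments overlapped at all 5 times. The differences ran from -0.08 at 6 h (95% interval -0.49 to 0.34) to 0.19 at 48 h (-0.23 to 0.60), with adjusted p from 0.796 to 0.975 over the 5 times.

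From 24 to 72 h Cd55 rose by 0.89 on the log2 scale in untreated cultures (SE 0.18, adjusted p = 0.000926), where 8.38% of all probes were called higher, and by 1.00 with Dox (SE 0.18, adjusted p = 0.000330), where 7.25% were. Most of this lay between 24 and 48 h, at 0.68 untreated (adjusted p = 0.0243, with 2.62% of all probes called higher) and 0.88 with Dox (adjusted p = 0.0107, with 1.47%). From 6 to 24 h the differences were -0.03 and 0.03, neither past the threshold (adjusted p = 0.935 and 0.941). The 72 h arrays form a set of their own, so time and set cannot be told apart there. Within 1 set, the Dox replicates at 24 h read 5.05 and 4.63 and those at 48 h 5.72 and 5.77. The times did not overlap there, but with 2 replicates at each time this was not tested. The share of all probes without such overlap was not taken. The untreated rise from 24 to 48 h had no 24 h array in the set of the 48 h arrays, and with the set as a block it was 0.74 (adjusted p = 0.493). It was also lost with no detection filter (adjusted p = 0.0588) and without untreated 24 h replicates 2 or 3 or untreated 48 h replicates 1 or 2 (adjusted p from 0.0513 to 0.163). The rise with Dox from 24 to 48 h was lost with the authors' values (0.18, adjusted p = 0.229) and without Dox 24 h replicate 3 (adjusted p = 0.0578). It was also lost without either Dox 48 h replicate, which leaves 1 (0.91 and 0.85). Both rises from 24 to 72 h held in each alternative run made for them and with each replicate left out. The array set as a block was not among those runs, since the 72 h arrays form a set of their own.

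**Figure D3:**
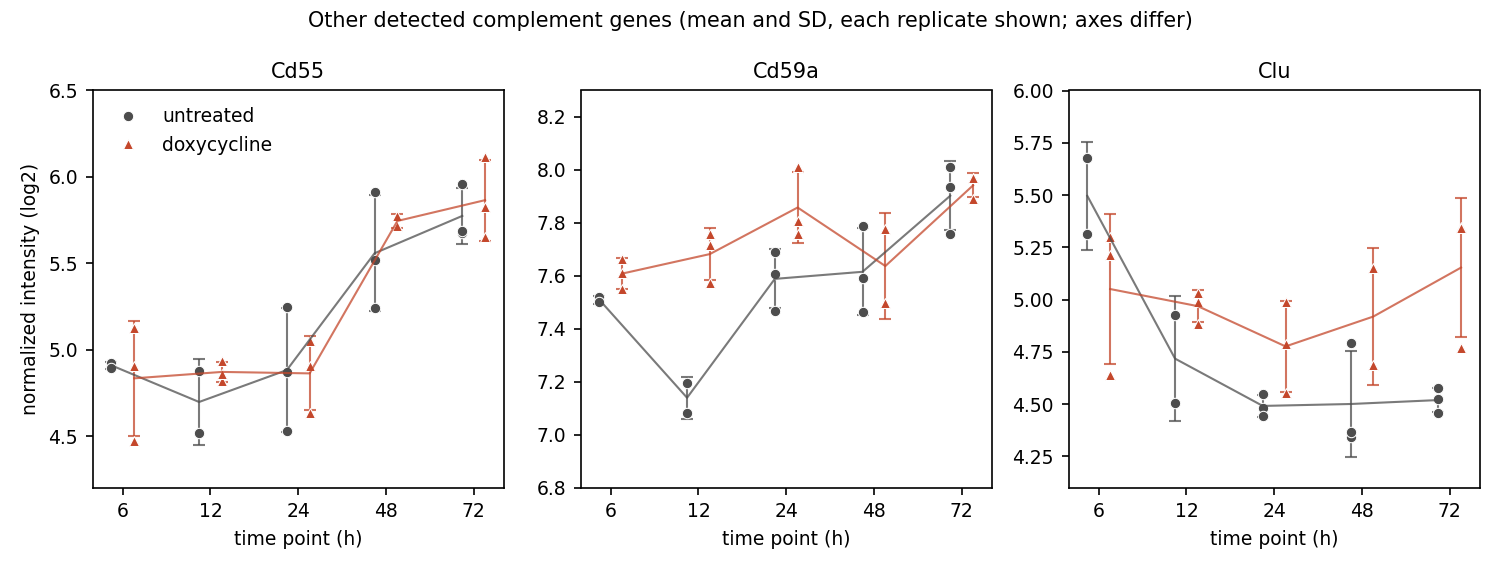
Normalized log2 intensity (vertical axes, which differ in range) of Cd55, Cd59a and Clu at each time point in hours, with a point per replicate and lines and bars for the group mean and SD. Cd55 climbs after 24 h in both treatments, Cd59a is lowest in the untreated 12 h group at a mean of 7.14, and untreated Clu has means of 4.49 to 4.52 from 24 h on, where no untreated array detected it.

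Cd59a, the GPI-anchored protein that blocks the membrane attack complex, was detected on all 29 arrays. Of the single times, it differed with Dox past the threshold at 12 h only. At 12 h the untreated replicates read 7.08 and 7.20 and the Dox replicates 7.72, 7.76 and 7.57, a difference of 0.54 (1.46-fold, SE 0.12, adjusted p = 0.0168). The untreated 12 h replicates were the lowest of all 27. At 24 h the untreated replicates read 7.47, 7.69 and 7.61 and the Dox replicates 8.01, 7.81 and 7.76, without a call (0.27, adjusted p = 0.198). Every Dox replicate lay above every untreated one there, as for 9.07% of all probes. At 6, 48 and 72 h the differences were 0.10, 0.02 and 0.04 (adjusted p from 0.596 to 0.973). Cd59a was called higher with Dox in the mean over 5 times (0.19) and in that without 24 h (0.18). Of all probes 10.1% and 10% were called higher in these means. The 5-time call was lost with median scaling, the authors' values and the Actb covariate (adjusted p = 0.432, 0.111 and 0.807). The call without 24 h held in 8 of 12 alternative settings and in 15 of 27 runs with a replicate left out. The 12 h call was lost with the Actb covariate (0.37, adjusted p = 0.530), with median scaling (0.55, adjusted p = 0.116), and without Dox 12 h replicate 2 (adjusted p = 0.0701). It was also lost with the array set blocked and without untreated 12 h replicate 1. Both leave 1 untreated array at 12 h and gave the same difference of 0.49.

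With time, untreated Cd59a rose from 24 to 72 h by 0.31 on the log2 scale (SE 0.11, adjusted p = 0.0434), and the Dox cultures differed by 0.08 (adjusted p = 0.673). At 72 h the untreated replicates read 8.01, 7.94 and 7.76 and the Dox replicates 7.97, 7.97 and 7.89. The treatments overlapped there. The untreated rise was lost with median scaling (0.36, adjusted p = 0.116) and without untreated 24 h replicates 1 or 3 or untreated 72 h replicates 1 or 2 (adjusted p from 0.0850 to 0.182), and whether it differed from that with Dox was not tested.

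Clu (clusterin, a secreted chaperone that also binds the terminal complement proteins) was near the limit of detection and was detected on 3 of 14 untreated and 11 of 15 Dox arrays. At 6 h the untreated replicates read 5.31 and 5.68 and the Dox replicates 4.64, 5.30 and 5.21. The Dox replicates all lay below the untreated ones there. At 6 h 49.2% of all probes had no overlap between treatments, in either direction. The Clu difference was -0.45, short of the threshold (adjusted p = 0.105). At 72 h the untreated replicates read 4.58, 4.52 and 4.46 and the Dox replicates 5.35, 4.77 and 5.34. All Dox replicates lay above all untreated ones at 72 h, which was so for 12.3% of all probes. The fitted difference of Clu was 0.63 (SE 0.18, adjusted p = 0.0322).

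Clu was not well above background on any untreated array at 24, 48 or 72 h, so its fold there is a bound. Against the lowest signal of a detected probe on each untreated array, Clu was at least 1.29-fold higher with Dox at 72 h (measured means 5.15 and 4.52). At 48 h no call was made (adjusted p = 0.394). Averaged over 12, 48 and 72 h, Clu was called higher with Dox by a fitted 0.43, where 3.86% of all probes were called higher. This call was lost with the Actb covariate (adjusted p = 0.0658) and with the array set as a block (0.36). It was also lost without untreated 12 h replicate 1 or Dox 48 h replicate 1 (0.36 in each). The 72 h call was lost without background correction (0.24, adjusted p = 0.0534), with no detection filter (adjusted p = 0.0862), with the Actb covariate (0.62, adjusted p = 0.0539), and on leaving out each 72 h replicate in turn other than Dox replicate 2 (adjusted p from 0.0738 to 0.169). Within untreated cultures Clu was at least 1.64-fold higher at 6 h than at 24 h, where it was not well above background (measured means 5.50 and 4.49, adjusted p = 0.000289, with 17.6% of all probes called lower at 24 h), a call lost with the Actb covariate (adjusted p = 0.0532) and with the authors' values (-0.09, adjusted p = 0.147). With Dox the difference over this interval was -0.27 (adjusted p = 0.316).

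**Figure D4:**
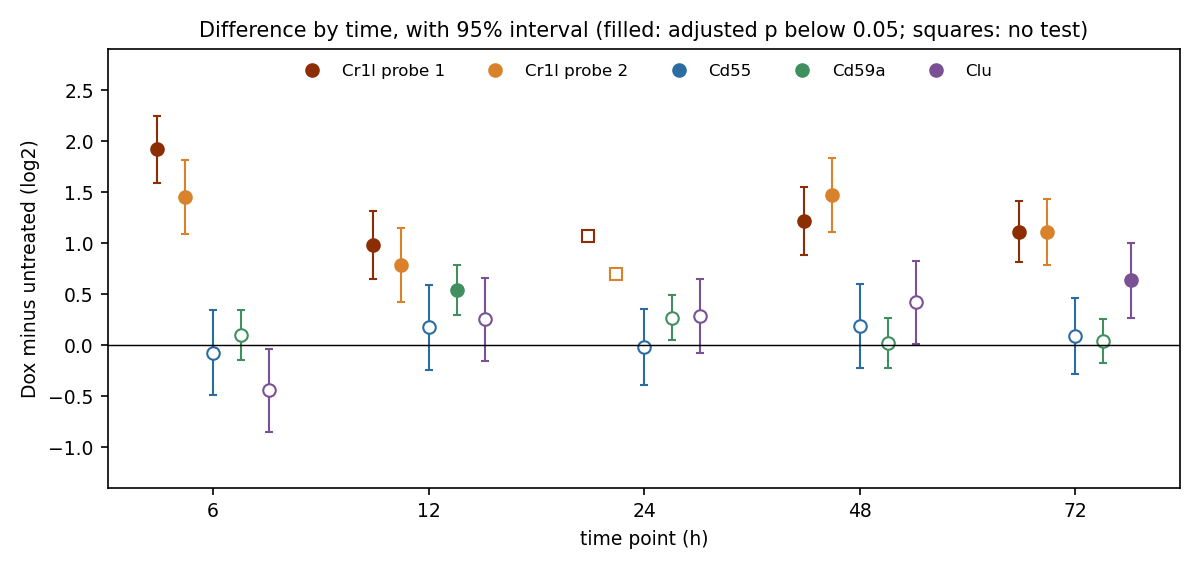
Dox minus untreated on the log2 scale (vertical axis) for the 5 detected probes at each time point in hours (horizontal axis), with 95% intervals. Filled points passed an adjusted p of 0.05, open points did not, and open squares are Cr1l at 24 h, shown without a test; both Cr1l probes lie above 0.7 in every tested comparison and Cd55 lies between -0.08 and 0.19.

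The other members gave little or no signal. Serping1 (C1 inhibitor, which inactivates the C1 proteases) was detected on 1 untreated array and no Dox array, and Cfb (factor B, the protease of the alternative pathway) and C1ra (a protease of the C1 complex) on none of 29. C3, the central component of the cascade, and C1s, the other C1 protease, had no probe under these symbols; C1s1 had 2 probes, neither detected on any array. Undetected here means at or near the background of the array, and lower transcript levels were not measurable.

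The wider complement system was mostly undetected as well. Of 53 further complement genes, 44 had a probe, and 11 of 59 probes were detected on at least 2 arrays. None of these 11 was called in either direction at 6, 12, 24 or 48 h by limma, where 25.4%, 1.6%, 2.54% and 2.35% of all probes were, and 1 was called higher at 72 h, against 2.7% of all probes. At an unadjusted p below 0.05 the counts at the first 4 times were 1, 2, 4 and 2. The share of all probes at this unadjusted threshold was not taken, so these counts have nothing to be set against. Their median difference at 72 h was 0.03 on the log2 scale, against 0.00 for all probes tested. That 1 probe was Fcna (ficolin A, a lectin that starts the lectin pathway), which read 6.37 to 6.56 with Dox and 5.83 to 5.93 untreated at 72 h, a difference of 0.56 (SE 0.13, adjusted p = 0.00911). Fcna is known from macrophages and liver, and the macrophage markers C1qa, C1qb, C1qc, Adgre1, Ptprc and Lyz2 did not meet the detection rule, while Aif1, Cd14 and H2-Ab1 did. Cd14, detected on all 29 arrays, differed by 0.26 at 72 h (adjusted p = 0.515) and was higher with Dox in the mean over 5 times (0.24, adjusted p = 0.0369). The summed intensity of the 3 detected macrophage genes at 72 h was 150 to 163 with Dox and 136 to 165 untreated, and its part in the Fcna difference was not tested.

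Genes that respond to inflammatory cytokines and interferons were also counted. Of 14 detected probes of 12 such genes, 1 was called higher and 4 lower at 6 h, against 12.5% and 12.8% of all probes, none at 12 or 48 h, 1 lower at 24 h, against 1.28%, and 3 lower at 72 h, against 2.91%. The probe called higher at 6 h was an Irf1 probe detected on 7 arrays (0.74), while the other Irf1 probes were called lower (-0.79 and -0.51). Probes of the same gene thus went in opposite directions. In the mean over 5 times 5 of 14 were called lower, against 9.79% of all probes, and those other Irf1 probes were among them. Their median difference at 72 h was -0.08 on the log2 scale. Over the 5 complement probes the median difference at 6, 12, 48 and 72 h was 0.10, 0.54, 0.42 and 0.63, against -0.05, -0.01, 0.00 and 0.00 for all probes. At each of these times the 2 Cr1l probes lay highest, so the median is the highest value among the other 3 probes. That was Cd59a at 6 and 12 h and Clu at 48 and 72 h, and the median does not describe the group as a whole. Of the 3 probes other than Cr1l, 0, 1, 0, 0 and 1 were called higher at the 5 times in turn, against 12.5%, 1.2%, 1.26%, 1.28% and 2.7% of all probes.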

How the data were processed

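RNA was measured on 29 Illumina bead arrays. Raw intensity per probe was deposited by the authors without normalization, per the file headers, with a detection p-value beside each signal that the authors deposited too. The authors' deposited log2 values are normalized by a method not given in the sources used here and served as an alternative. The labels give Dox as 1 µg/ml in one field and 1 µg/L in another.

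The neqc function of limma (version 3.58.1, R 4.3.3) took the background from the detection p-values and normalized by quantiles (offset 16), and 11794 probes were kept. One limma fit of 10 group means on 27 replicates gave every contrast, with Benjamini-Hochberg adjustment over all kept probes and a threshold of 0.05; it was tested on simulated data. No source says that replicates are separate cultures, so p-values cover only the spread among the samples at hand. Array sets, 4 in all, were read from the authors' values, since the labels name no batch. The number of arrays limits the precision.

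All 9 members are named with each detected probe; other complement genes are named where called with Dox at any time, and the 5 genes most like Cr1l by Pearson r. Members and lists were chosen with earlier results of these data known. Means and contrasts over 12, 48 and 72 h and 48 h minus 24 h were added after seeing the data. Alternatives covered background correction, scaling, the detection filter, a fold minimum of 1.5, the letter C arrays, array weights, blocks, the Actb covariate and leaving out each replicate.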

Additional observations from a re-analysis of the deposited data

Results flagged for a closer look

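The Dox difference of Cr1l probe 1 depended on the time (F test over 6, 12, 48 and 72 h, limma, adjusted p = 0.0158), with differences of 1.92, 0.98, 1.22 and 1.11 on the log2 scale. Cr1l probe 2 did not pass the same test (adjusted p = 0.131). The dependence on probe 1 was lost without background correction (adjusted p = 0.171), with median scaling (adjusted p = 0.140), with the authors' values (adjusted p = 0.979), with the Actb covariate (adjusted p = 0.256) and without untreated 6 h replicate 2 (adjusted p = 0.138) or Dox 6 h replicate 2 (adjusted p = 0.0507).

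The Dox difference of Clu also depended on the time in this test (adjusted p = 0.0286), from -0.45 at 6 h to 0.63 at 72 h. It was lost with the authors' values (adjusted p = 0.122), no detection filter (adjusted p = 0.0815), the Actb covariate (adjusted p = 0.321) and without untreated 6 h replicate 2 (adjusted p = 0.206), Dox 6 h replicate 1 (adjusted p = 0.0924) or Dox 72 h replicates 1 or 3 (adjusted p = 0.0564 and 0.0567). In both genes the untreated 6 h arrays that stood apart in the Actb probes enter the test. Over 12, 48 and 72 h the test passed for neither gene (adjusted p = 0.869 for Cr1l probe 1 and 0.764 for Clu).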

How the results depend on the processing

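No called difference of a complement probe changed direction under any alternative. Of all probes 25.4%, 1.6%, 2.54%, 2.35% and 5.61% were called with Dox at 6, 12, 24, 48 and 72 h. Of the member probes called, 2 were of Cr1l at each of 6, 12, 48 and 72 h. The number of member probes called was 2 at 6 h, 3 at 12 h, 0 at 24 h (Cr1l not counted), 2 at 48 h and 3 at 72 h. It was 1 at 6 h with the Actb covariate, 0 at 12 h with that covariate or with the array set as a block, and 1 at 24 h with the authors' values. Leaving out each replicate gave 2 at 6 h, 0 to 3 at 12 h (0 without untreated 12 h replicate 1 and 1 without Dox 12 h replicate 2), 0 at 24 h, 2 at 48 h and 2 to 3 at 72 h. The cause was not tested. With a replicate block by letter the counts were 2, 3, 0, 2 and 3, and the letters do not pair the samples: of 12 same-letter pairs 1 had a correlation of deviations above 0.1 (-0.05 to 0.15). Median scaling moved the median of all probes with Dox to -0.16 at 6 h and -0.23 at 24 h, and the calls to 853 higher and 2771 lower at 6 h and 66 higher and 2226 lower at 24 h. The authors' values gave 1135 higher and 1 lower at 12 h, with a median of 0.10. Clu and, in part, Cd55 lay near background, which limits their folds. The 2 letter C arrays of a treatment at 72 h were treated as repeats.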
